A study of Bos taurus with 16 samples.

Results

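The 10 enzymes studied here carry sulfur from homocysteine to cysteine and from cysteine to glutathione or taurine, or recycle and use glutathione. Their transcripts were followed in blastocysts of cows fed a control or a methionine-rich diet. The genes are CBS, CTH, GCLC, GCLM, GSS, GSR, GPX1, GPX4, CDO1 and CSAD, chosen by their roles in the pathway and found by symbol. All 10 were present, at 1 locus each, among the 22358 loci of the count tables. Embryos came from 8 lactating Holstein cows, 4 per treatment, and each cow gave 2 pools, so that 8 control and 8 methionine-rich pools were sequenced. The control group (Control) received a basal diet, and the methionine-rich group (Methionine) received the same basal diet with added rumen-protected methionine, from calving until the embryos were flushed. The cows of both groups were superovulated and inseminated with semen of 1 of 2 sires, and age was not given in the sources used here. The sample labels name the tissue as IVF embryos, whereas the study's methods describe embryos flushed from the inseminated cows.

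Methionine that has given up its methyl group becomes homocysteine, which cystathionine beta-synthase (CBS) joins to serine and cystathionine gamma-lyase (CTH) cleaves to cysteine. Cysteine is then either linked to glutamate and glycine as glutathione, the main thiol antioxidant of cells, or oxidised towards hypotaurine and taurine. Mammalian embryos inherit a store of glutathione from the oocyte, and loss of the catalytic subunit of glutamate-cysteine ligase or of GPX4 is lethal to mouse embryos.

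The design text gives between 2 and 4 expanded blastocysts per pool, while the study's methods also allow a single one, and RNA was amplified before sequencing. Control pool C3.2, with few of its reads on exons, was left out, as the study's authors did. The remaining 7 control and 8 methionine-rich pools held between 5624126 and 7826542 counts. Expression is given as CPM, the usual scaling of a gene's counts to the total count of its pool. A floor of 3 counts corresponded to between 0.383 and 0.533 CPM. The trophectoderm markers KRT18 and GATA2 were counted in all 15 pools, at 1757 to 6291 and 284 to 1737 CPM. In the same list CDX2 had counts in 12 pools and IFN-TAU in 1. POU5F1 of the inner cell mass was counted in all 15 pools, at 11.2 to 73.2 CPM. NANOG and PRDM14 of that list fell as low as 0.165 and 0.257 CPM. Leukocyte transcripts, and VIM of the stromal list, stood apart in 1 pool, C2.1. The 12 leukocyte markers present in the files, all with at least 3 counts in some pool, summed to 2661 CPM in C2.1, to at most 31.6 CPM in any other of the 15 pools, and to at most 7.24 CPM in the methionine-rich pools. Most of the sum in C2.1 came from LAPTM5, NKG7, TYROBP, SLAMF7 and LCP1, at 1239, 480, 377, 248 and 183 CPM. CD53 and ITGB2 reached 76.6 and 40.2 CPM there. PTPRC, CORO1A, CD74, CD52 and FCER1G stayed at or under 7.65 CPM in all 15 pools, so the list did not rise as a whole. The 6 fibroblast and stroma markers summed to 592.3 CPM in C2.1 and to at most 138.2 CPM in any other pool. VIM alone made up 583.7 CPM of the sum in C2.1, whereas COL1A2 was highest in another pool, at 137.4 CPM. The list sum in C2.1 thus rests on VIM and does not show stromal cells there. Enzyme differences without C2.1 are given for CBS, CTH, GCLC, GPX1, GPX4 and CDO1.

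The 10 enzymes ranged from those read in every pool to those with few counts in most pools. GSR, GPX1 and GPX4, which recycle and use glutathione, together held between 58.1% and 95.1% of the counts of the 10 genes in a pool, with a median of 89.8%. At least 10 counts in each of the 15 pools were found for 5 of the 10 genes (CBS, GSR, GPX1, GPX4 and CSAD). These were 5 of the 9 enzymes tested, against 47.2% of all loci tested. GCLC, GCLM and GSS, the genes of glutathione synthesis, reached 3 counts in only 6, 10 and 7 of the 15 pools. These shares are counts and not molecules per gene, because no transcript lengths were used. In pools of whole embryos, fewer cells that express a gene and less RNA per cell cannot be told apart.

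**Figure D1:**
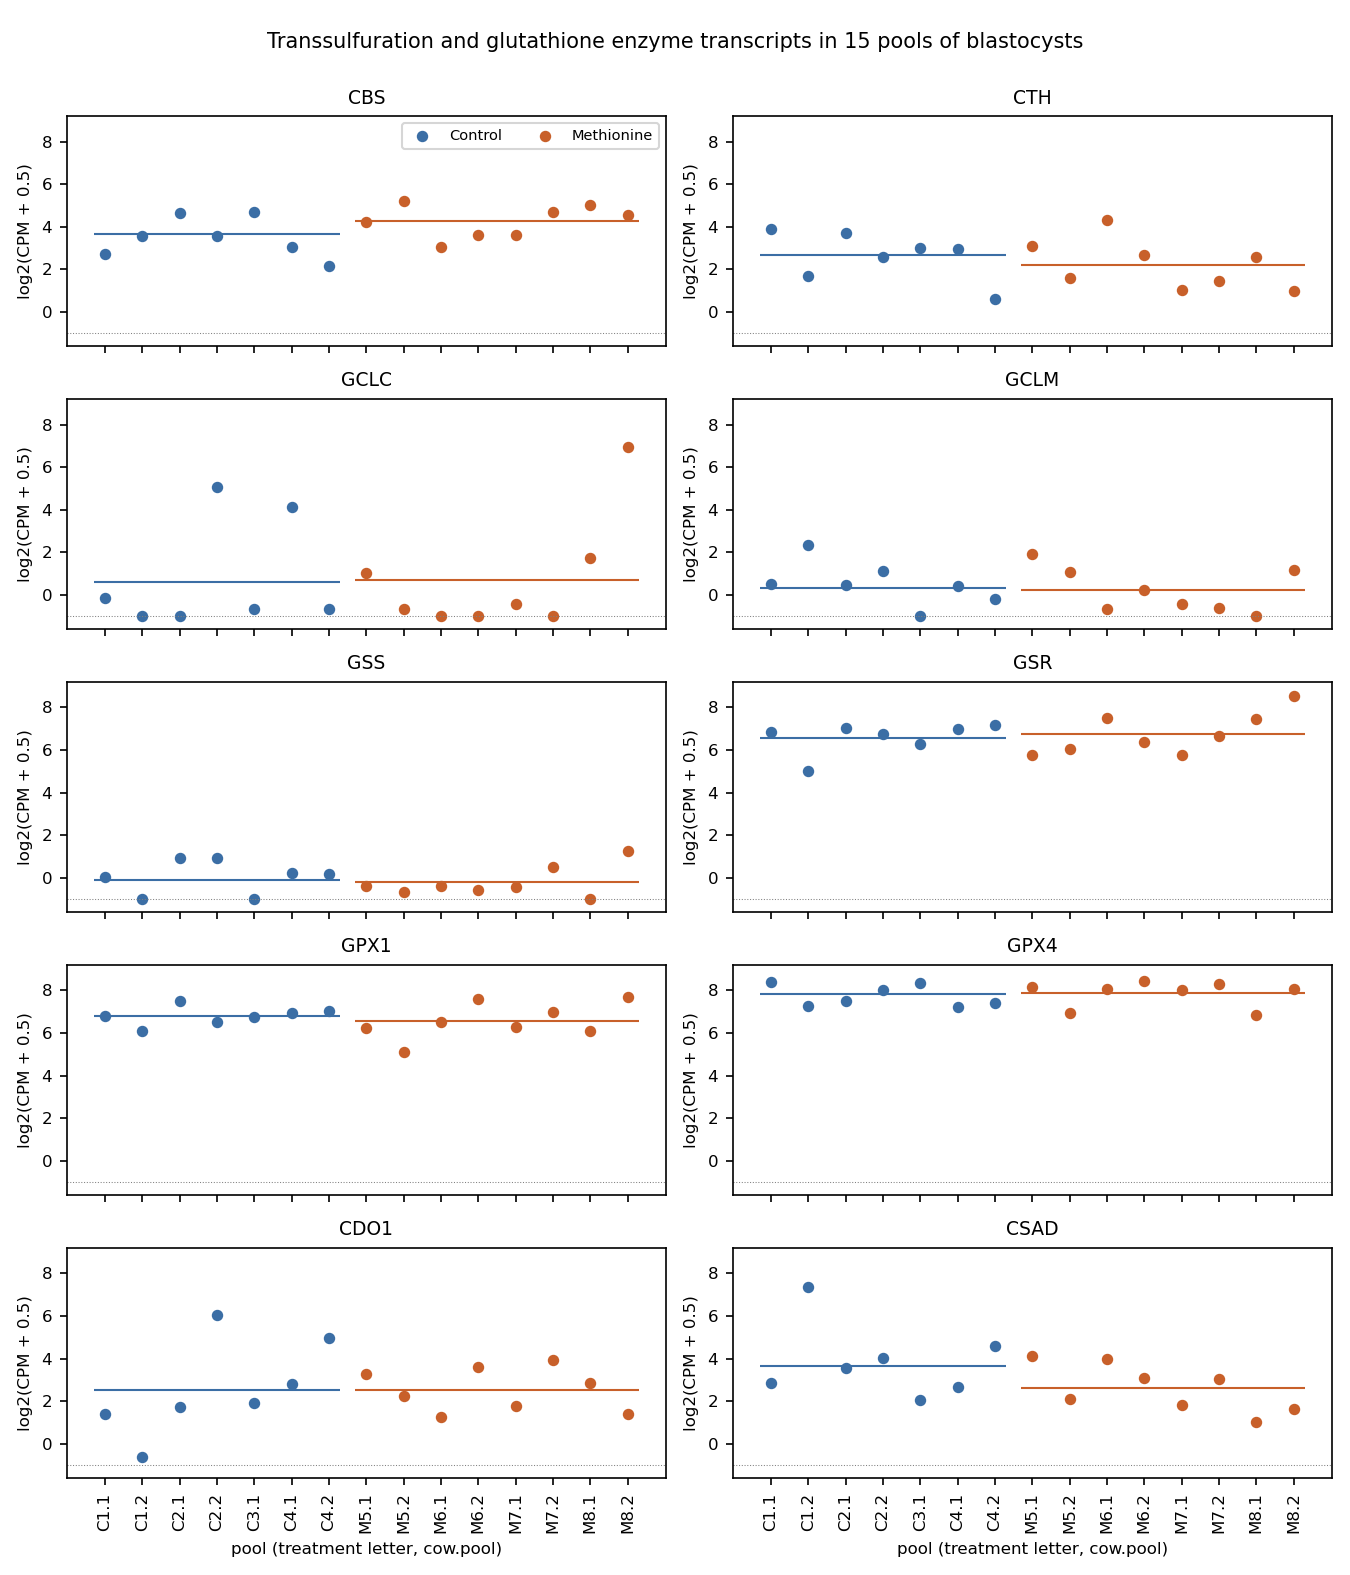
Expression of the 10 enzymes as log2(CPM + 0.5) in each of 15 pools, with control pools in blue and methionine-rich pools in orange. Horizontal lines are the means over 4 cows and the dotted line marks a count of 0. GSR, GPX1 and GPX4 lie high in every pool, GCLC is high in C2.2, C4.1 and M8.2, and CSAD is highest in C1.2.

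Loci whose CPM added up to 15 or more across the 15 pools were tested, and 9 of the 10 enzymes passed this filter, with GSS left out at a sum of 8.55. By edgeR's exact test, 0 of the 9 had an FDR under 0.10 with at least a 2-fold difference, beside 1.05% of all 10519 loci tested. Of these, 1, CSAD, had an unadjusted p under 0.05, as had 8.54% of all loci. By edgeR's quasi-likelihood test 0 enzymes were called, beside 0% of all loci, and CSAD was again the only 1 of the 9 with an unadjusted p under 0.05, beside 8.64% of all loci. DESeq2 called 0 enzymes, beside 0.637% of all loci, and limma's voom 0, beside 0% of all loci. The log2 fold change of methionine-rich over control had a median of -0.11 over the 9 enzymes and of -0.05 over all loci, with 4 enzymes above 0 and 5 below. Without pool C2.1 the median over the 9 enzymes was 0.10. Because the 2 pools of a cow are not independent, each enzyme was also compared on the mean of log2(CPM + 0.5) per cow, by a two-sided exact permutation test over the 70 assignments of 8 cows to treatments, in which p cannot fall below 0.0286. The cows of the treatments overlapped in all 9 enzymes, so that 0 stood apart, against 2.3% of all loci tested. With 4 cows per treatment, differences smaller than the spread between cows cannot be resolved.

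**Figure D2:**
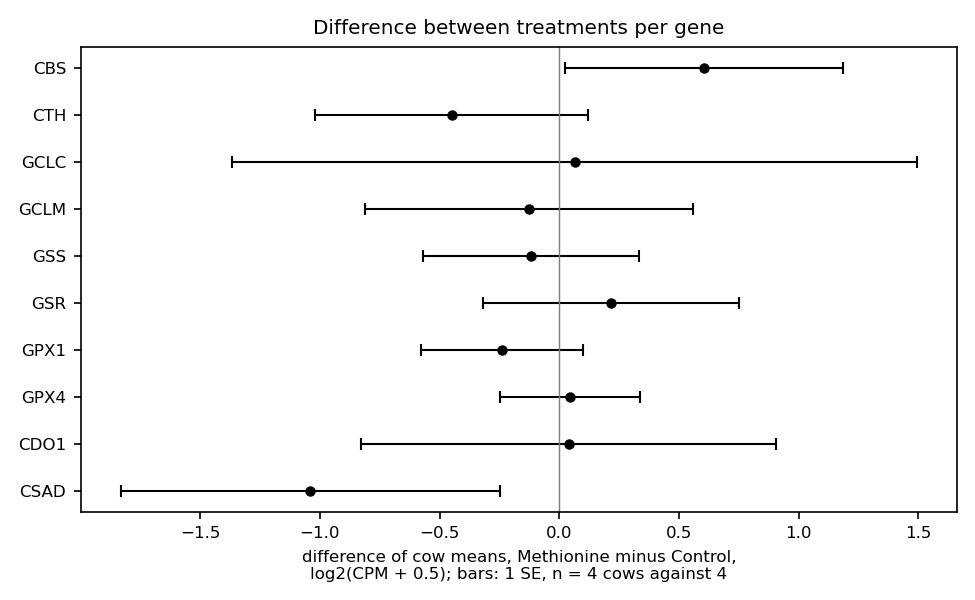
Difference between treatments for each of the 10 enzymes, methionine-rich minus control, on the scale of log2(CPM + 0.5). Points are differences of means over 4 cows and bars are 1 standard error. CSAD lies lowest at -1.04 and CBS highest at 0.61, and both ranges of cows overlap between treatments.

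CBS (XLOC_000833), which commits homocysteine to cysteine, had counts in every pool. The 7 control pools held 31 to 191 counts (median 74) and the 8 methionine-rich pools 57 to 276 (median 151). By cow, control means were 8.81, 17.99, 25.7 and 5.87 CPM and methionine-rich means were 27.4, 9.77, 18.6 and 27.5 CPM. The highest cow of the control group thus exceeded 2 of the 4 methionine-rich cows, and the difference in log2(CPM + 0.5) was 0.61 ± 0.58 (SE, n = 4 cows per treatment, exact permutation test, p = 0.229). The exact test across loci gave a log2 fold change of 0.65 with an FDR of 0.937. CBS was higher in methionine-rich cows in each of the 16 alternatives tried, which reuse the same 8 cows, by between 0.21 and 1.32. The exact permutation test gave p of at least 0.0571. The 1.32 and the 0.0571 both came with all 16 pools, which put back C3.2, a pool without a CBS count. Otherwise the difference was at most 1.005, on second pools, and p by that test at least 0.114, without control cow 3. Without pool C2.1 the difference was 0.74.

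CTH (XLOC_015808), the next enzyme, was counted in all 15 pools at lower counts. Control pools held 8 to 108 counts (median 44), and methionine-rich pools 11 to 144 (median 27). The 144 counts of pool M6.1, or 19.6 CPM, stood above the other methionine-rich pools, of which the next held 8.13 CPM. Cow means were 8.47, 8.93, 7.41 and 4.14 CPM in control and 5.32, 12.8, 1.91 and 3.46 CPM in methionine-rich cows, so that methionine-rich cows spread more widely, on both sides of the control range. The difference in log2(CPM + 0.5) was -0.45 ± 0.57 (SE, n = 4 cows per treatment, exact permutation test, p = 0.429). It was -0.88 without cow 6, -0.13 without cow 7, -0.73 without pool C1.2 and -0.31 without pool C2.1.

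Within a pool, the ratio of CTH to CBS counts does not depend on how libraries are scaled. CTH counts exceeded CBS counts in 2 of the 15 pools, C1.1 and M6.1. The log2 ratio averaged -1.06 ± 0.56 in control and -2.18 ± 1.60 in methionine-rich cows (SD, n = 4 cows each), a difference of -1.12 ± 0.85 (SE; exact permutation test, p = 0.2). Cow 6, the dam of pool M6.1, had a higher ratio than any control cow, while the other 3 methionine-rich cows had a lower one.

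GCLC (XLOC_011435), the catalytic subunit of glutamate-cysteine ligase, which sets the rate of glutathione synthesis, was found mainly in a few pools. Pool M8.2 held 900 counts, or 71.5% of the GCLC counts in the 15 pools, C2.2 held 215, C4.1 held 104, M8.1 held 20 and M5.1 held 11. The other 10 pools had between 0 and 3 counts, and 5 of them had none. The high pools belonged to cows of both treatments, and the sister pools C2.1, C4.2 and M8.1 had 0, 1 and 20 counts. The size of the difference depended on the scale and its sign on single pools and cows. It was 0.06 ± 1.43 in log2(CPM + 0.5) (SE, n = 4 cows per treatment, exact permutation test, p = 1), 1.30 as the log2 ratio of mean CPM, -1.14 without cow 8 and -0.70 without pool C2.1. The spread between sister pools, 2.55 on the log2 scale, was the widest of the 10 genes.

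GCLM (XLOC_015103), the regulatory subunit that raises the activity of GCLC, stayed near the floor. Control pools held 0 to 31 counts (median 5), and methionine-rich pools 0 to 24 (median 3). Its highest value, 4.65 CPM in C1.2, came from a pool without a GCLC count. GCLM counts exceeded GCLC counts in 9 of the 15 pools, and the log2 ratio ran from -6.06 in M8.2 to 5.98 in C1.2. Both subunits varied from pool to pool with a rank correlation of 0.23 over 15 pools, most of them with few counts for either gene. The difference in the ratio between treatments was -0.13 ± 2.25 (SE, n = 4 cows per treatment, exact permutation test, p = 0.971) and changed sign without pool C2.1, to 0.83.

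GSS (XLOC_003870), glutathione synthetase, which adds glycine in the last step, had at most 14 counts in any pool. The medians were 4 counts in control and 2 in methionine-rich pools, and 3 pools had none. Its ratio to GSR was not computed because GSS did not pass the filter. Its difference in log2(CPM + 0.5) was -0.12 ± 0.45 (SE, n = 4 cows per treatment, exact permutation test, p = 0.771), and a difference was not detectable at this depth.

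GSR (XLOC_013816), glutathione reductase, which restores glutathione from its oxidised form with NADPH, had 210 to 1119 counts per control pool (median 726) and 397 to 2784 per methionine-rich pool (median 583.5). Pool M8.2 was highest at 376 CPM and the control pool C1.2 lowest at 31.5 CPM. Cow means were 73.7, 118, 78.7 and 136 CPM in control and 60.7, 131, 77.1 and 276 CPM in methionine-rich cows. Except for cow 8 the methionine-rich cows lay within or below the control range. The difference was 0.22 ± 0.54 in log2(CPM + 0.5) (SE, n = 4 cows per treatment, exact permutation test, p = 0.8), and -0.20 without cow 8.

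GPX1 (XLOC_011081) and GPX4 (XLOC_019049) are selenium enzymes that reduce peroxides with glutathione, GPX1 mainly hydrogen peroxide and GPX4 the lipid peroxides of membranes. GPX1 had 460 to 1033 counts per control pool (median 786) and 255 to 1548 per methionine-rich pool (median 636.5). GPX4 had 911 to 2554 counts (median 1326) and 838 to 2094 counts (median 2012), respectively. GPX4 was the steadiest of the 10 genes. Its highest pool exceeded its lowest by 3.01-fold in CPM and held 10.3% of its counts, and sister pools differed with an SD of 0.59 on the log2 scale. Mean GPX4 was 238 ± 69.2 CPM in control and 248.5 ± 57.5 CPM in methionine-rich cows (SD, n = 4 cows each), a difference of 0.05 ± 0.29 in log2(CPM + 0.5) (SE; exact permutation test, p = 0.886), and -0.02 without pool C2.1. Mean GPX1 was 115 ± 21.2 and 108.8 ± 40.8 CPM (SD, n = 4 cows each), a difference of -0.24 ± 0.34 (SE; exact permutation test, p = 0.629). Without pool C2.1, the highest control pool for GPX1, the difference was -0.11, and the log2 fold change of the exact test went from -0.11 to 0.10.

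GPX4 counts exceeded GPX1 counts in all pools but 1, C2.1, the pool with the leukocyte transcripts, where the log2 ratio of GPX1 to GPX4 was 0.03. The part of these transcripts in the ratio was not tested. The ratio averaged -1.02 ± 0.59 in control and -1.30 ± 0.57 in methionine-rich cows (SD, n = 4 cows each), and its difference of -0.29 ± 0.41 (SE) did not exceed the spread of cows (p = 0.543 by the exact permutation test). Without C2.1 the difference was -0.09. On the first pools of the cows alone, GPX1 was higher in each control cow than in any methionine-rich cow, by 0.72 on the log2 scale (exact permutation test, p = 0.0286, the smallest it can give), where 2.52% of all loci did not overlap. On the second pools, with C3.1 standing in for C3.2, the sign was the opposite, at 0.24.

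CDO1 (XLOC_001378), cysteine dioxygenase, and CSAD (XLOC_016885), cysteine sulfinic acid decarboxylase, lead cysteine towards hypotaurine and taurine. CDO1 had 1 to 419 counts per control pool (median 24) and 14 to 97 per methionine-rich pool (median 40.5). Its 2 highest pools, C2.2 at 64.8 CPM and C4.2 at 30.3 CPM, were both control pools, yet the lowest pool was also a control pool, C1.2 with 1 count. The mean CPM was thus higher in control cows, 14.2 ± 15.2 against 6.74 ± 1.78 (SD, n = 4 cows each), while the difference in log2(CPM + 0.5) was 0.04 ± 0.87 (SE; exact permutation test, p = 1), and -0.50 without pool C2.1. The exact test across loci gave a log2 fold change of -1.11 with an FDR of 0.870.

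CSAD came nearest to a call. It had 1085 counts in C1.2, which was 55.2% of its total, 27 to 185 in the other 6 control pools and 11 to 123 in the methionine-rich pools. Cow means were 84.8, 13.4, 3.64 and 14.8 CPM in control and 10.4, 11.6, 5.41 and 2.05 CPM in methionine-rich cows. Only cow 1 lay apart, and the control cow with the lowest mean fell below 3 of the 4 methionine-rich cows. The exact test gave a log2 fold change of -2.31 with an FDR of 0.142 (unadjusted p = 0.00221), and the quasi-likelihood test an FDR of 0.323. On cow means the difference was -1.04 ± 0.79 in log2(CPM + 0.5) (SE, n = 4 cows per treatment, exact permutation test, p = 0.229). Without pool C1.2 the log2 fold change by the exact test fell to -0.63 (FDR = 1), and DESeq2, which can replace a count that stands far out, gave -0.59 ± 0.54 (SE; adjusted p = 0.904). Without control cow 3 or 4 the exact test did call CSAD, with an FDR of 0.0743 and 0.0731. Those fits called 122 of 10382 and 153 of 10209 loci. On the first pools of the cows alone the difference in log2(CPM + 0.5) was -0.04, and on the second pools, which include C1.2 and, for cow 3, its first pool, it was -2.04 (exact permutation test without a call in either). The leukocyte markers summed to 31.6 CPM in C1.2, the highest sum outside C2.1. The stromal markers summed to 57.7 CPM there, and to as much as 138.2 CPM in another pool outside C2.1. These sums do not show leukocytes or stromal cells in C1.2, and a relation of the markers to its CSAD count was not tested.

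**Figure D3:**
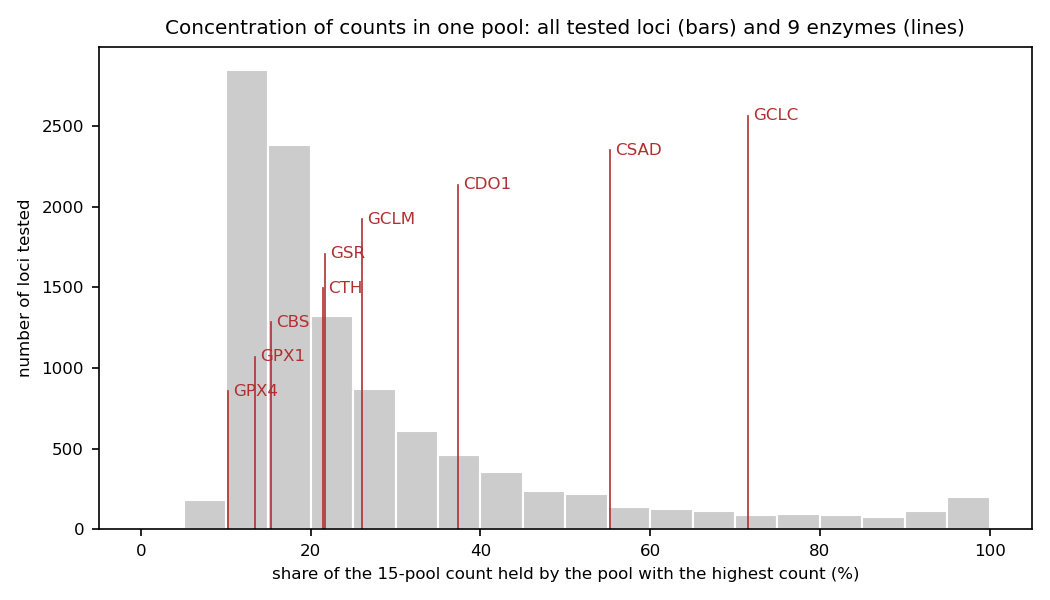
Share of a gene's 15-pool count that came from the pool with the highest count, for all 10519 loci tested (grey bars, number of loci per 5% bin) and for the 9 enzymes that passed the filter (red lines, whose height has no meaning). GPX4 at 10.3% and GPX1 at 13.4% lie at the even end, and CSAD at 55.2% and GCLC at 71.5% lie in the tail.

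The enzymes differed in how evenly their counts were spread over pools. A single pool held at least 50% of the counts for 2 of the 9 enzymes, CSAD and GCLC, against 11.9% of all loci, and the median share of the highest pool was 19.5% over all loci. The SD of single sister pools exceeded the SD of cow means within a treatment for 6 of the 9 enzymes. It did so for 74.8% of all loci (medians over all loci 1.07 and 0.82 on the log2 scale). Means of 2 pools vary less than single pools even where cows do not differ, so this comparison does not show how much cows differ. CBS was among the exceptions, with 0.62 between sister pools and 0.82 between cow means. Pool M8.2 was highest for 4 of the 10 enzymes, GCLC, GSS, GSR and GPX1. Of the 7 red cell markers present in the files, ALAS2, an enzyme of haem synthesis, made up the whole list sum of 45.5 CPM in that pool, the highest of the 15 pools. HBA was at 0 in all pools, and the other 5 markers, HBA1, HBB and HBM among them, stayed at or under 1.24 CPM. The part of ALAS2-expressing cells in these values was not tested.

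The pathway around the 10 enzymes was described with 9 further lists, 8 of which held a tested locus. By the exact test, 0 of the 50 loci tested in these lists were called, beside 1.05% of all loci, and the quasi-likelihood test, which called 0% of all loci, and the exact test on all 16 pools also gave 0. At an unadjusted p under 0.05 there was 1 locus, GLUD1, glutamate dehydrogenase, with 58.1% of its counts in pool M8.2, against 8.54% of all loci. Of the other glutathione peroxidases (GPX2, GPX3, GPX5, GPX6, GPX7 and GPX8), 0 of 6 passed the filter. GPX2, an epithelial form, was highest among them at 2.09 CPM, and GPX5 had no count in the 15 pools. GPX1 and GPX4 were therefore the peroxidases of this family that could be measured.

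In the list for cystine and glutamate supply, all 6 of the tested loci had a log2 fold change above 0, as had 46.5% of all loci, with a median of 0.46, and 0 were called. With all 16 pools 4 of the 6 stayed above 0, and SLC1A5, another amino acid carrier, went from 0.04 to -0.64. The glutamate transporter SLC1A1 averaged 47.4 ± 16.2 CPM in control and 64.7 ± 17.9 CPM in methionine-rich cows (SD, n = 4 cows each), a log2 fold change of 0.41 (FDR = 0.965). SLC38A2, which imports neutral amino acids, averaged 87.2 ± 50.3 and 131.8 ± 26.3 CPM (SD, n = 4 cows each), a log2 fold change of 0.51 (FDR = 0.843) that became -0.22 with all 16 pools. The cystine carrier SLC7A11 had at most 6 counts in a pool and was not tested, so a difference in its transcript was not measurable at this depth.

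Of the 24 loci listed as glutathione S-transferases, which attach glutathione to other molecules, 11 were tested, with a median log2 fold change of -0.37, 3 above 0 and 8 below. MGST2 and 1 of the 2 GSTO1 loci were highest in pool C2.1, without which the median was -0.34. MGST3, a microsomal enzyme, had 90.2 ± 30.9 CPM in control and 66.4 ± 27.2 CPM in methionine-rich cows (SD, n = 4 cows each; log2 fold change -0.47, FDR = 0.938), and GSTK1 had a log2 fold change of -0.40 (FDR = 1). Reads of the closely related GSTA and GSTM genes may have been divided among copies. The 5 tested loci of glutathione breakdown had a median of -0.25, and LAP3, a leucine aminopeptidase, had 65.0 ± 20.7 and 44.6 ± 12.0 CPM (SD, n = 4 cows each; log2 fold change -0.55, FDR = 0.884).

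NADPH, which GSR consumes, can come from the pentose phosphate pathway or from isocitrate. IDH1, cytosolic isocitrate dehydrogenase, was counted at 826 to 3176 CPM, with 2012 ± 1027 CPM in control and 2150.5 ± 404 CPM in methionine-rich cows (SD, n = 4 cows each; log2 fold change 0.22, FDR = 1). PGLS and PGD, enzymes of the pentose phosphate pathway, had log2 fold changes of 0.08 and 0.06 (FDR = 1). The list had a median of 0.08 over 5 tested loci.

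Transcripts of the oxidative stress regulators were also counted. NFE2L2, the transcription factor NRF2 that activates glutathione synthesis genes, had a log2 fold change of 0.24, and KEAP1, which targets NRF2 for breakdown, had -0.11 (FDR = 1 for both). The 2 named by the rule for this list were CUL3, the ligase scaffold that works with KEAP1, at -0.41 (FDR = 0.970), and MAFG, a partner of NRF2, at 0.33 (FDR = 1). Over the 9 tested loci the median was 0.04, and 0.25 without pool C2.1. For selenoprotein synthesis, on which GPX1 and GPX4 depend, the median over 5 tested loci was 0.08, with SEPHS1 at -0.52 (FDR = 0.902) and SEPHS2, which makes the selenium donor, at 0.22 (FDR = 1). The lists of cysteine breakdown and of glutaredoxins had medians of 0.16 over 6 loci and -0.16 over 3 loci, with SUOX, the sulfite oxidase, at 0.44, MPST, which makes hydrogen sulfide, at 0.22, and the glutaredoxins GLRX2 and GLRX5 at -0.16 and -0.17 (FDR = 1 for all 4). With all 16 pools the sign changed for IDH1 (-0.02), KEAP1 (0.07) and SEPHS2 (-0.07).

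**Figure D4:**
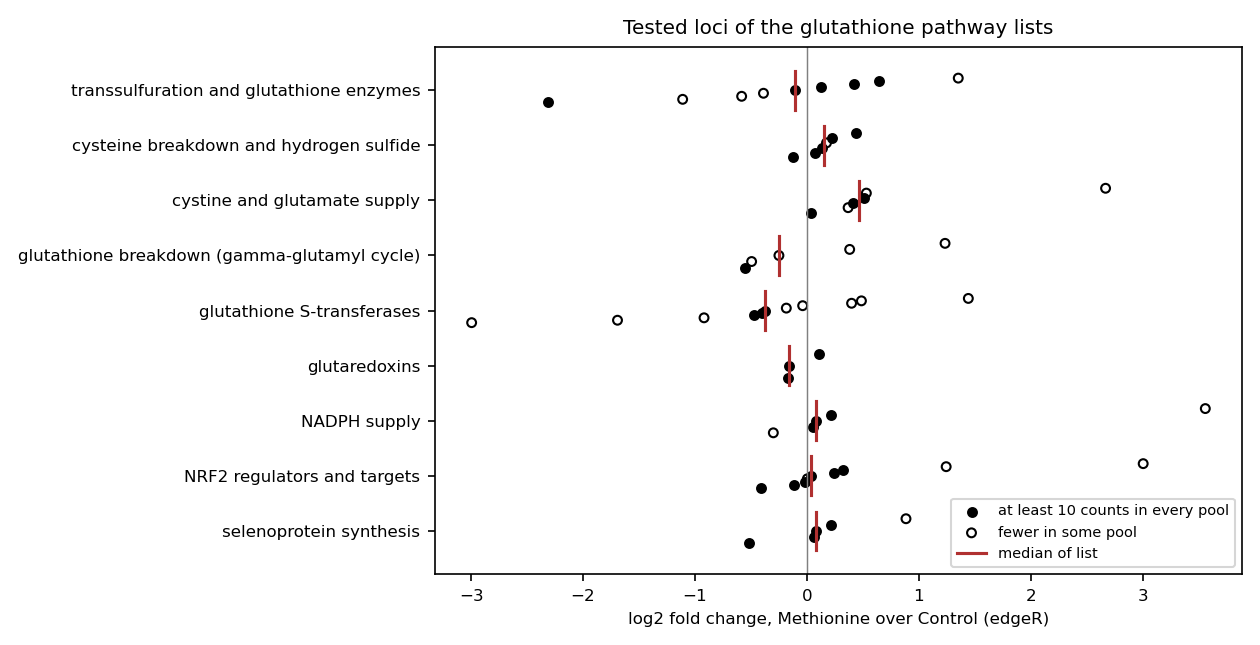
Log2 fold change of methionine-rich over control for each tested locus of the 10 enzymes and of the 8 further lists that hold a tested locus or more. Filled points had at least 10 counts in every pool, open points had fewer in some pool, and red bars are list medians. The points far from 0 are mostly open, with CSAD at -2.31 as the filled exception.

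For the 5 enzymes with at least 10 counts in each of the 15 pools, the loci with the most similar pattern were listed among 4857 named loci of the same kind, by Spearman correlation over the pools. The highest were 0.77 for CBS (TMSB4X, followed by TMSB4, whose reads may overlap with it, and LIMA1), 0.82 for GSR (ASH2L, then ZSCAN21 and MPZL2), 0.76 for GPX1 (C17H22orf39, then SDHB and SRSF3), 0.76 for GPX4 (CHCHD10, with DCTN1 also among the nearest) and 0.88 for CSAD (NARS2, then PPP2R5C and EBNA1BP2). With 15 pools of 8 cows and that many loci, these are descriptions, and no enzyme of the 10 appeared among the nearest loci of another.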

How the data were processed

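RNA of blastocyst pools was sequenced as single-end reads. The authors mapped reads to bosTau7 with TopHat2 2.0.4, built transcripts with Cufflinks 2.0.2 and counted reads per locus with HTSeq; the deposited files hold these counts, without normalization. The strand setting is not given in the sources used here. Loci listed under several gene names (182 of 22358) were entered once. CPM used the pool total. Following the study, C3.2 was left out, loci with summed CPM of at least 15 were kept, and edgeR 4.0.16 (R 4.3.3) with TMM and the exact test was used, with FDR under 0.10 and 2-fold as the call. The quasi-likelihood test, DESeq2 1.42.0 and limma 3.58.1 were alternatives. Each test was tried on simulated counts with the same spread for all loci. It missed most changes at a spread like the common one of these pools and found most at a narrower spread. Standard errors of cow means are from the spread between 4 cows. The floor of 3 counts covers counting error only.

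The enzymes, lists and tests were chosen with earlier results of these data known. Named genes were all 10 enzymes, called genes of each list and otherwise the 2 with the largest change among genes never under 10 counts in a pool, and 3 nearest loci for each enzyme at that level. GLUD1, NFE2L2, KEAP1, SLC7A11, PGD, GPX2 and GPX5 were named after their values were seen. So were KRT18, GATA2, POU5F1, CDX2 and the other marker genes named with counts. No genome of the files' build was used, so positions and sequences are not given. Transcript lengths were not used. Some loci that the rule would name are not reported here.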

Additional observations from a re-analysis of the deposited data

Results flagged for a closer look

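Among 26 groups of pools checked (each enzyme and ratio in each treatment), 5 held a pool whose gap to its neighbour took up most of the group's range. They were CTH in M6.1 at 19.6 CPM (next methionine-rich pool 8.13), GCLC in M8.2 at 121.5 CPM (next 2.78), GSR in M8.2 at 375.9 CPM (next 180.4), GCLM in C1.2 at 4.65 CPM (next control pool 1.70) and CSAD in C1.2 at 162.7 CPM (next 23.8). M8.2 and C1.2 each gave 2 of the 5.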

How the results depend on the processing

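Of 160 alternative values of the enzyme differences (log2, methionine-rich minus control), 125 kept their direction and their side of the threshold, 34 changed sign and 1 passed the threshold. CBS, CTH and CSAD kept their sign in all of them, with ranges of 0.26 to 0.96, -0.88 to -0.13 and -1.57 to -0.55 without 1 cow. CDO1 became -1.07 with CPM averaged on the linear scale and -0.11 with a pseudocount of 2 CPM, and GPX1 became 0.18 with all 16 pools. Without pool C2.1, GCLC was -0.70, GPX4 -0.02 and CDO1 -0.50. Without pool C1.2, an alternative chosen after seeing the data, GCLC was -0.041, GCLM 0.11, GSR -0.016, GPX4 -0.10 and CDO1 -0.21. On first pools GCLC was -0.25, GSR -0.17, GPX4 -0.10 and GPX1 -0.72, and on second pools (cow 3 by its first) GSS was 0.35, GPX1 0.24 and CDO1 -0.26. Leaving out 1 cow at a time gave -1.14 to 0.63 for GCLC, -0.57 to 0.24 for GCLM, -0.42 to 0.22 for GSS, -0.20 to 0.50 for GSR, -0.40 to 0.062 for GPX1, -0.12 to 0.23 for GPX4 and -0.67 to 0.50 for CDO1. The cause of these changes was not tested.

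The number of enzymes whose cows did not overlap, 0, became 1 (GPX1) on first pools, where 2.52% of all loci did not overlap, and ranged from 0 to 1 without 1 cow (CSAD, without control cow 3, where the share of all loci was 4.76%). The number called, 0, ranged from 0 to 1 without 1 cow. The 1 was CSAD without control cow 3 or 4, where 122 of 10382 and 153 of 10209 loci were called. The GCLM to GCLC ratio was 0.83 without C2.1, 0.092 on second pools and -0.96 to 1.73 without 1 cow. The CTH to CBS ratio ranged from -1.91 to -0.78 without 1 cow. Its lowest value came without cow 6, the only methionine-rich cow above the control cows, whose removal itself ends the overlap. Without any other cow the exact permutation test gave p between 0.2 and 0.429. On second pools the GPX1 to GPX4 ratio was 0.051.

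Over all loci, 110 were called by the exact test, 67 by DESeq2, 0 by the quasi-likelihood test (909 with an unadjusted p under 0.05) and 0 by voom. The exact test called 55 with no filter except 1 count, 0 with at least 10 counts in every pool, 341 with all 16 pools, and 62 to 153 without 1 cow (66 without cow 7 and 62 without cow 8). It called 64 without C2.1, and the quasi-likelihood test 0 with all 16 pools, both chosen after seeing the data. With counts summed per cow the exact test called 78 loci and the quasi-likelihood test 0, and the pool number as a replicate block gave 0 as well. The correlation of deviations between same-numbered pools of the treatments ran from -0.10 to 0.05 over 28 pairs, and the labels give the number no meaning beyond the pool of a cow. Simulated counts had the same spread for all loci. At a spread like the common one of these pools, each of the 4 tests missed most of the changes put in, and DESeq2 made many false calls. At a narrower spread each test found most of the changes. The enzymes were not simulated at their own spreads, which were narrower for some, such as GPX4. With these limits, 0 enzymes called does not show that they did not differ.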

Other observations

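Pool C3.2, left out of the comparisons, held 86 counts of GSR, 18 of GPX1, 14 of GPX4, 11 of CTH, 7 of CSAD and 5 of CDO1, and none of CBS, GCLC, GCLM or GSS. Its GPX1 and GPX4 came to 10.3 and 8.02 CPM, below the lowest of the other control pools, 69.0 and 150 CPM. Its total was 1745048 counts, so that 3 counts correspond to 1.72 CPM there, above the median of GCLC, GCLM and GSS in the other pools.

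Across the 15 pools, the rank correlation between enzymes was highest for GSS and GPX1 at 0.64, followed by GSR and GPX1 at 0.52, and lowest for CBS and CSAD at -0.51. CBS and CTH, successive steps of transsulfuration, gave -0.10. The pools share dams and the low genes hold few counts, so these are descriptions.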
